A study of Zea mays with 6 samples.

Results

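The transcripts described here encode the enzymes of sucrose and trehalose metabolism. They comprise 82 transcripts of 75 genes, out of 48312 transcripts of 43006 genes in the table, and were chosen by annotation alone, as those whose KEGG Orthology column names trehalose or one of the listed entries for sucrose synthase, beta-fructofuranosidase (invertase), sucrose-phosphate synthase, sucrose-phosphatase, trehalose 6-phosphate synthase (TPS) and trehalose 6-phosphate phosphatase (TPP). Sucrose synthase (K00695) contributed 13 transcripts of 11 genes, invertase (K01193) 13 of 12 genes, sucrose-phosphate synthase (K00696) 16 of 15 genes, TPS (K16055) 26 of 24 genes and TPP (K01087) 14 of 13 genes. No transcript carried the sucrose-phosphatase entry of the rule (0 members). In 2 sucrose-phosphate synthase members the entry was not the best match of the annotation.

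Sucrose is the form in which sugar reaches a growing root tip. It is made from UDP-glucose and fructose 6-phosphate by sucrose-phosphate synthase and a phosphatase, and it is split in the sink tissue either by invertase, which yields glucose and fructose, or by sucrose synthase, which works reversibly and yields UDP-glucose and fructose. Trehalose is a related disaccharide that most plants hold in traces. Its precursor trehalose 6-phosphate, made by TPS and removed by TPP, follows the sucrose level of the cell and acts as a signal of sugar supply. In *Arabidopsis* one class of TPS proteins makes trehalose 6-phosphate, while the larger second class has largely lost that activity and is thought to have regulatory roles.

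RNA came from the root tips (1 cm) of maize seedlings of cultivar Chang 7-2, with 10 to 15 roots per library. Roots of 3 kinds were sampled after 24 h in nutrient solution with 100 mM NaCl (PR-salt, CR-salt, SR-salt) or without NaCl (PR, CR, SR), where PR is the primary root, CR the crown root and SR the seminal root. Roots were 6 to 10 cm long by the sample characteristics, and treatment began 3 days after germination in PR, 15 days in CR and 7 days in SR, so that root type and plant age cannot be told apart. Each condition had a single library, so no condition has a replicate error. The labels speak of 3 biological replicates per root type, and whether a library pools them is not stated.

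The 6 libraries held 2493 to 2663 kiloreads (1 kiloread is 1000 counted reads), of which the members took 0.225% in PR-salt, 0.266% in PR, 0.286% in CR-salt, 0.301% in CR, 0.280% in SR-salt and 0.322% in SR. Of the 82 members, 32 had fewer than 10 reads in all libraries together and 33 had at least 60. Levels are given as reads and as RPKM, the reads divided by the length of the transcript and by the counted reads of the library. Transcripts of histones and mitotic cyclins, which mark dividing cells, summed to 8873 to 11003 RPKM in the salt-treated and 10672 to 14376 RPKM in the untreated libraries (102 transcripts, 17 to 25 without a read in a library), and were lower under salt in each root type, by 0.27 (PR), 0.31 (CR) and 0.39 (SR) on the log2 scale. Transcripts of Rubisco small subunits and light-harvesting proteins, which mark green shoot tissue, summed to 80.1 to 123 RPKM in the salt-treated and 40.1 to 106 RPKM in the untreated libraries (22 transcripts, 7 to 15 without a read). By root type their log2 ratio was 0.21 in PR, 1.0 in CR (80.1 RPKM in CR-salt against 40.1 RPKM in CR) and -0.09 in SR. The extraction text of the labels names shoots beside roots. The part of either cell population in the results below was not tested, and in whole tips fewer cells of a type cannot be told apart from less RNA per cell.

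Within each enzyme a small number of transcripts carried most of the reads. The leading member took 62.9% of the sucrose synthase reads, 59.6% of the invertase reads, 45.5% of the TPP reads, 41.4% of the sucrose-phosphate synthase reads and 35.1% of the TPS reads, over the 6 libraries. The summed RPKM of an enzyme is therefore mainly a statement about its leading members. Per length, the TPS members had the highest sum of the 5 enzymes and the sucrose synthase members the lowest in every library. The sucrose synthase members include only minor transcripts of the genes sus1 and sh1. Their rank is therefore no measure of the enzyme's whole transcript level.

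The summed level of invertase was lower under salt in each root type, with 238 RPKM in PR-salt against 341 RPKM in PR, 300 RPKM in CR-salt against 391 RPKM in CR, and 222 RPKM in SR-salt against 364 RPKM in SR. TPS was lower as well, with 356 RPKM in PR-salt against 463 RPKM in PR, 498 RPKM in CR-salt against 563 RPKM in CR, and 563 RPKM in SR-salt against 668 RPKM in SR. Both sums thus lay lower in the salt-treated library of every pair. Invertase did so by the larger factor, at 0.609 to 0.768 of the untreated level against 0.769 to 0.886 for TPS. The median log2 ratio of TPS with at least 20 reads in the pair, 1 read added, was near 0 in PR and CR. It was -0.01 in PR (8 lower, 6 higher), -0.01 in CR (8 lower, 5 higher) and -0.29 in SR (9 lower, 5 higher). The lower TPS sum is therefore not a fall of most members in PR and CR by that factor.

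Sucrose-phosphate synthase was higher under salt in each root type, with 258 RPKM in PR-salt against 230 RPKM in PR, 267 RPKM in CR-salt against 223 RPKM in CR, and 252 RPKM in SR-salt against 214 RPKM in SR. Sucrose synthase was also higher, with 21.0 RPKM in PR-salt against 17.4 RPKM in PR, 28.8 RPKM in CR-salt against 17.1 RPKM in CR, and 22.6 RPKM in SR-salt against 13.9 RPKM in SR. TPP had no common direction, and that of SR turned with TMM scaling (fold 1.02 as given, 0.995 with TMM), with 61.5 RPKM in PR-salt against 76.5 RPKM in PR, 106 RPKM in CR-salt against 103 RPKM in CR, and 117 RPKM in SR-salt against 114 RPKM in SR. These sums are a description and were not tested.

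**Figure D1:**
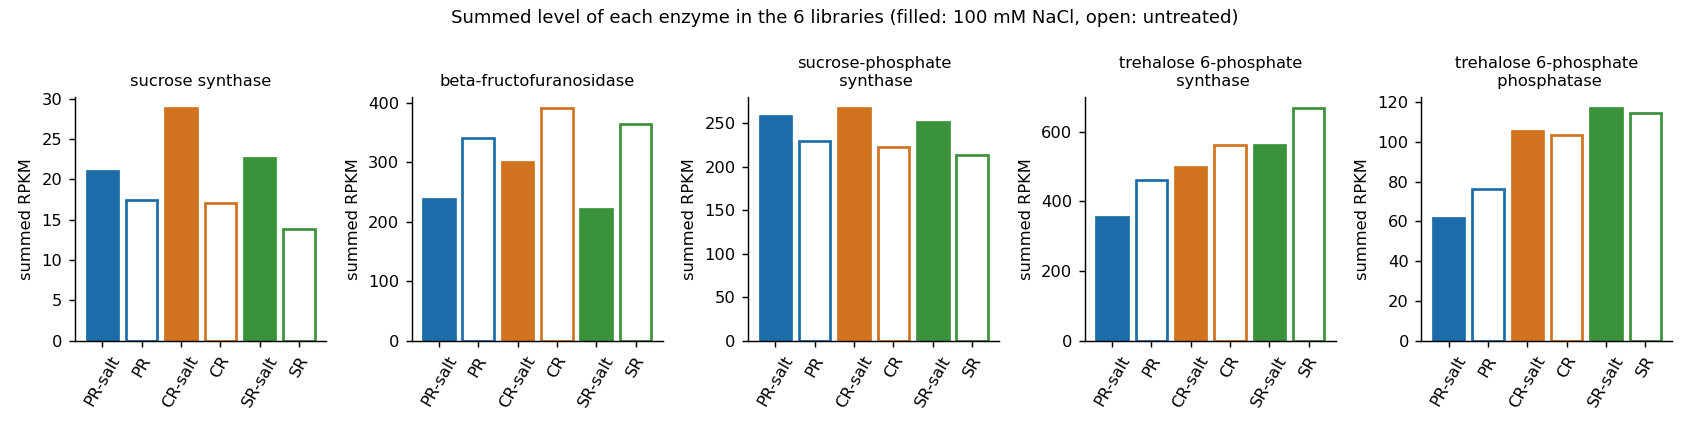
Summed RPKM of the members of each enzyme (vertical axis, linear from 0) in the 6 libraries, with filled bars for 100 mM NaCl and open bars for untreated roots of PR, CR and SR. Invertase and TPS are lower and sucrose-phosphate synthase and sucrose synthase higher in the salt-treated library of each pair.

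Each salt-treated library was compared with the untreated library of its root type by the test of Audic and Claverie on their reads, and a transcript was called where its FDR did not exceed 0.001 and its RPKM differed by a log2 ratio of 1 or more. This test covers counting error only and compares the 2 libraries, not the conditions. In PR-salt 3 of the 69 members with a read were called, all lower, against 0.519% of all transcripts tested. In CR-salt 1 of 68 was called, lower, against 0.369%. In SR-salt 2 of 68 were called, 1 lower and 1 higher, against 0.392%. The 5 transcripts concerned were 3 invertases (GRMZM2G089836, GRMZM2G018716 and GRMZM2G095725) and 2 TPS (GRMZM2G312521 and GRMZM2G122231), and no sucrose synthase, sucrose-phosphate synthase or TPP was among them. By the study's own count at these thresholds, most called genes were down-regulated in every root type, and nearly all in PR. The lower direction is thus not particular to the members. At the same FDR and any ratio, 4 members passed lower and 0 higher in PR-salt (1.14% of all transcripts passed in either direction), 2 lower and 1 higher in CR-salt (1.16%), and 4 lower and 2 higher in SR-salt (1.2%).

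Where 2 libraries were instead allowed to vary with a coefficient of variation of 0.2, edgeR's exact test called 1 member in PR-salt (GRMZM2G018716) and 0 in CR-salt and SR-salt. The salt effect averaged over root types, in which the root types serve as blocks, was tested with edgeR's quasi-likelihood method for the 34 members that reached 10 reads in 3 or more libraries. It called 1 of them at an FDR of 0.05, against 0.613% of all transcripts tested, and 12 of the 34 had an unadjusted p of at most 0.05, as had 12.5% of all transcripts. Of these 12 members, GRMZM2G174396 had met the read filter through the untreated libraries alone. Fits without 1 library leave its root type with 1 library, which adds nothing to the salt effect, so the whole pair drops out. The number called changed with the library left out, among the members and among all transcripts (ranges in the last section). It is not read as a result about the members. At least 60 reads were held by 33 members, of which 8 were lower in all 3 root types (14.9% of all such transcripts, and 10 members with TMM scaling) and 6 were higher in all 3 (20.1%, and 6 members with TMM scaling).

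**Figure D2:**
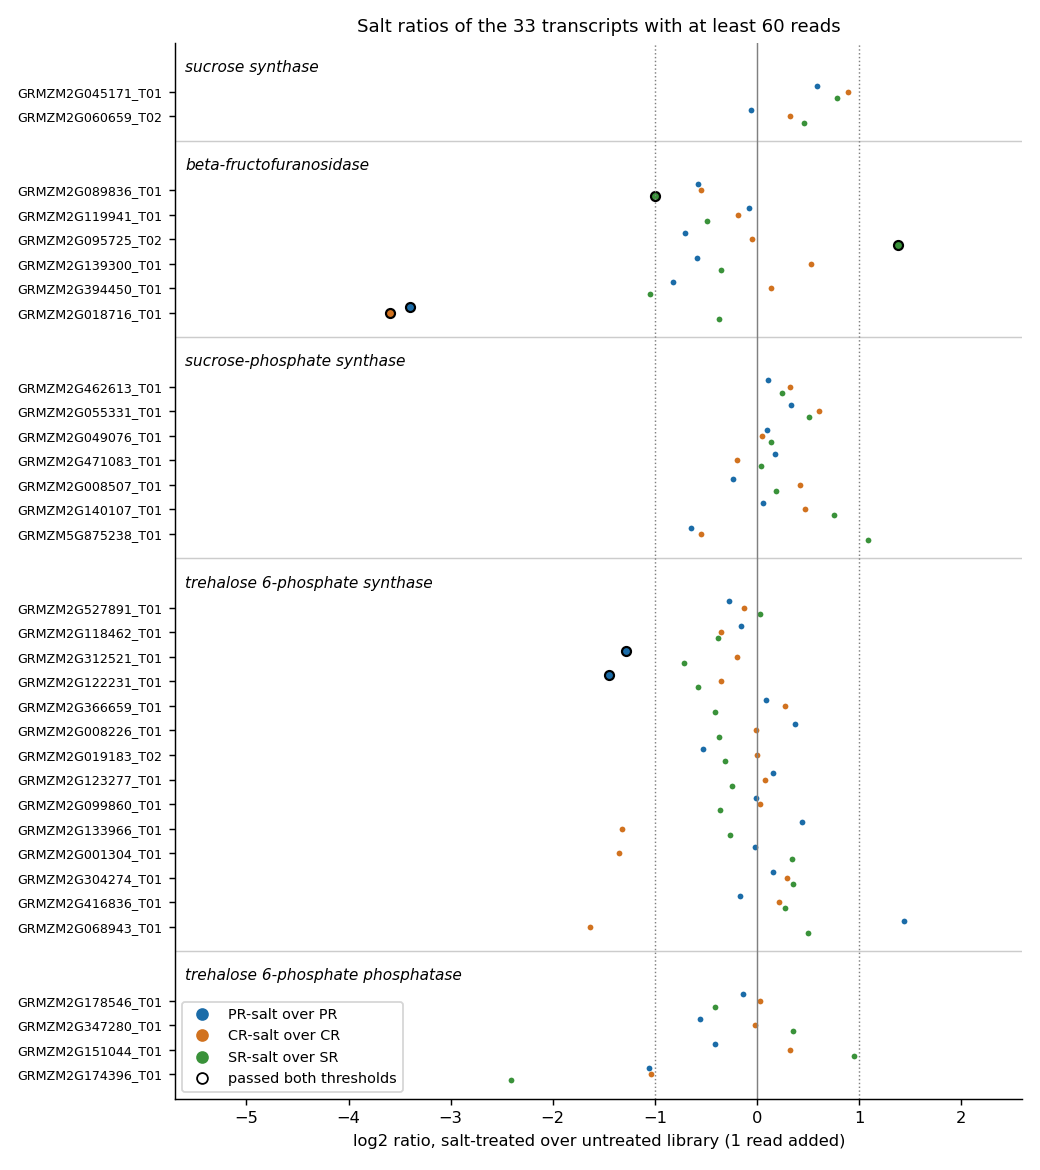
Log2 ratio, salt-treated over untreated library with 1 read added, of the 33 members with at least 60 reads (rows) in PR, CR and SR (colours), with ringed points for ratios that passed both thresholds and dotted lines at -1 and 1. The invertases GRMZM2G089836 and GRMZM2G018716 lie left of 0 in every root type, and the sucrose synthase GRMZM2G045171 and the sucrose-phosphate synthases GRMZM2G462613 and GRMZM2G055331 lie right of it.

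Transcripts of sus1 and sh1 outside the members are not ranked here. Among the invertase and sucrose synthase members, the most abundant transcript was that of ivr2 (GRMZM2G089836_T01), which encodes a soluble invertase of the vacuole. It had 133 RPKM (714 reads) in PR-salt against 199 RPKM (1027 reads) in PR, 155 RPKM (795 reads) in CR-salt against 227 RPKM (1200 reads) in CR, and 113 RPKM (580 reads) in SR-salt against 226 RPKM (1140 reads) in SR. All salt-treated libraries lay below all untreated ones. The log2 ratio was -0.58 in PR (interval -0.72 to -0.44), -0.55 in CR (interval -0.68 to -0.42) and -1.003 in SR (interval -1.15 to -0.86). Intervals here and below are exact 95% intervals of the reads.

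The FDR of the Audic-Claverie test for ivr2 was 2.07e-14 in PR, 1.54e-14 in CR and 1.47e-41 in SR, but only the ratio in SR reached the threshold of 1. With edgeR's quasi-likelihood test ivr2 was the 1 member called for the average salt effect, at a log2 fold change of -0.74 (SE 0.10, FDR 0.0113). Without SR-salt its FDR was 0.0771, while it passed when any other single library was left out. As a share of the summed invertase RPKM, ivr2 took 55.7% in PR-salt against 58.3% in PR, 51.7% in CR-salt against 58.1% in CR, and 50.9% in SR-salt against 62.1% in SR.

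The next invertase by level, GRMZM2G119941_T01, has no name in the RefSeq table. It had 77.4 RPKM in PR-salt against 81.6 RPKM in PR, 86.6 RPKM in CR-salt against 98.7 RPKM in CR, and 62.4 RPKM in SR-salt against 87.8 RPKM in SR. It was lower in each pair, but the intervals of the log2 ratio held 0 in PR (-0.29 to 0.13) and in CR (-0.39 to 0.01). In SR it fell by 0.49 on the log2 scale, with an Audic-Claverie FDR of 0.000828 and a ratio short of the threshold. Together ivr2 and GRMZM2G119941 held 84.7% of the invertase reads.

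The largest salt ratios of the members with at least 50 reads in a pair were those of the invertase GRMZM2G018716_T01. It had 1.81 RPKM (8 reads) in PR-salt against 21.2 RPKM (90 reads) in PR, 0.714 RPKM (3 reads) in CR-salt against 11.3 RPKM (49 reads) in CR, and 6.88 RPKM (29 reads) in SR-salt against 8.95 RPKM (37 reads) in SR. In PR and CR it was thus almost without reads under salt, whereas the libraries of SR were close to each other. It fell by 3.55 on the log2 scale in PR (interval -4.81 to -2.51, Audic-Claverie FDR 4.47e-17). In CR it fell by 3.98 (interval -6.31 to -2.35, Audic-Claverie FDR 2.62e-09), and in SR the log2 ratio was -0.38 (interval -1.13 to 0.36).

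The difference between these ratios was tested on the reads of 4 libraries with an exact conditional test, for transcripts with 20 or more reads. A difference was called where the FDR did not exceed 0.001 and the log2 ratios, with 1 read added, lay 1 or more apart. For GRMZM2G018716 the log2 ratio in PR lay below that in SR by a difference of -3.03 (exact test FDR 1.67e-05), and the ratio in CR below that in SR by -3.23 (exact test FDR 0.000842). Between PR and CR the ratios differed by 0.20 (exact test FDR 1). It was 1 of 38 members called for PR against SR, where 0.708% of all transcripts were called, and 1 of 39 for CR against SR, where 0.186% were called. For the average over root types edgeR gave a log2 fold change of -2.18 with an FDR of 0.0779. That value changed with the root types used, since leaving out either library of a pair takes the pair out of the average. It was -1.48 without PR-salt and -1.49 without PR. Without SR-salt or SR it was -3.69, and without CR-salt or CR it was -1.80.

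The invertase GRMZM2G095725_T02 was the 1 member called higher under salt in any root type. It had 19.6 RPKM (89 reads) in SR-salt against 7.39 RPKM (33 reads) in SR, 28.4 RPKM (129 reads) in CR-salt against 29.5 RPKM (138 reads) in CR, and 3.14 RPKM (15 reads) in PR-salt against 5.24 RPKM (24 reads) in PR. It rose in SR by a log2 ratio of 1.40 (interval 0.81 to 2.03, Audic-Claverie FDR 5.61e-05). In CR the ratio was -0.05 (interval -0.41 to 0.30) and in PR -0.74 (interval -1.77 to 0.25). The ratio in PR differed from that in SR by -2.08 (exact conditional FDR 0.0103), and that in CR from that in SR by -1.43 (exact conditional FDR 0.00263), neither of which passed. In SR-salt this transcript was thus higher while ivr2 was lower.

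Other invertases of the maize literature were well below ivr2 in level. IVR1 (GRMZM2G394450), also an invertase of the vacuole, had 45 reads in PR-salt against 77 in PR, 47 in CR-salt against 44 in CR, and 30 in SR-salt against 62 in SR. The cell wall invertase incw1 (GRMZM2G139300) had 55 reads in PR-salt against 80 in PR, 59 in CR-salt against 42 in CR, and 55 in SR-salt against 69 in SR. Neither passed in any root type. Those of incw3 (GRMZM2G123633), with 16 reads over the 6 libraries, and of mn1 (GRMZM2G119689), the cell wall invertase of the developing kernel, with 2 reads, were too few for a comparison. All 6 invertases with at least 20 reads in the PR pair were lower in PR-salt than in PR, with a median log2 ratio of -0.65 (all transcripts 0.03). In CR-salt 4 of 7 were lower (median -0.05, all transcripts 0.02) and in SR-salt 5 of 6 (median -0.43, all transcripts 0.02), and these medians are with 1 read added.

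**Figure D3:**
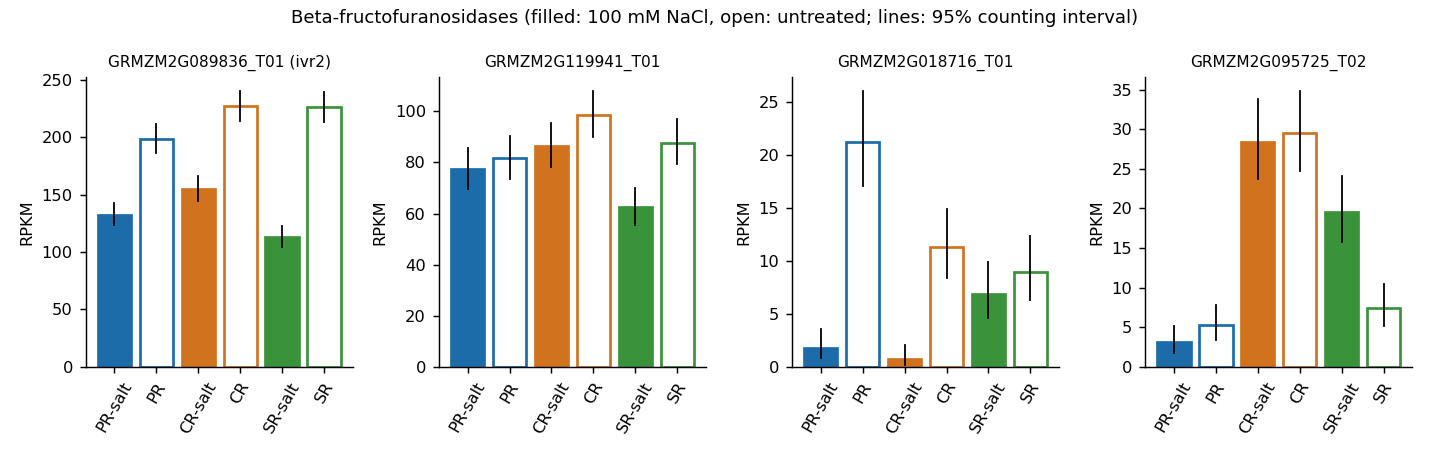
RPKM of invertase transcripts (vertical axes, linear from 0, a panel each) in the 6 libraries, filled bars for 100 mM NaCl and open bars for untreated roots, with exact 95% counting intervals as lines. The bars of ivr2 (GRMZM2G089836) are lower under salt in each root type, those of GRMZM2G018716 nearly vanish in PR-salt and CR-salt, and those of GRMZM2G095725 are highest in CR-salt, CR and SR-salt.

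Sucrose synthase, the other enzyme that splits sucrose, was represented mainly by GRMZM2G045171_T01, for which the RefSeq table has no name. It had 10.7 RPKM (71 reads) in PR-salt against 7.05 RPKM (45 reads) in PR, 18.0 RPKM (114 reads) in CR-salt against 9.66 RPKM (63 reads) in CR, and 10.1 RPKM (64 reads) in SR-salt against 5.79 RPKM (36 reads) in SR. Every salt-treated library thus lay above every untreated one. The log2 ratio was 0.60 in PR (interval 0.04 to 1.17), 0.90 in CR (interval 0.44 to 1.37) and 0.80 in SR (interval 0.19 to 1.43). None of the ratios passed (Audic-Claverie FDR 0.393 for PR, 0.00357 for CR and 0.159 for SR), and the average salt effect by edgeR was 0.74 with an FDR of 0.0685. That average passed without PR-salt (edgeR FDR 0.00499) or PR (edgeR FDR 0.00733) and not without another library (edgeR FDR up to 0.313).

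The other sucrose synthase transcripts were sparse. That of sus2 (GRMZM2G318780_T02) had 7 reads in PR-salt against 22 in PR, 11 in CR-salt against 1 in CR, and 9 in SR-salt against 3 in SR. The second by RPKM, AC187285.5_FGT004, owed its rank to a length of 471 bases and had 1 to 4 reads per library. For the sucrose synthases sus1 (GRMZM2G152908) and sh1 (GRMZM2G089713), the members were minor transcripts with 1 or 2 reads each over the 6 libraries. Other transcripts of these genes were not analysed here. The sum over sucrose synthase members is therefore no measure of the enzyme's whole transcript level.

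Sucrose synthesis was represented by 16 sucrose-phosphate synthase members, of which 7 had at least 60 reads. The leading transcript, GRMZM2G462613_T01, had 105 RPKM in PR-salt against 97.3 RPKM in PR, 103 RPKM in CR-salt against 82.8 RPKM in CR, and 98.1 RPKM in SR-salt against 83.0 RPKM in SR. The log2 ratio was 0.11 in PR (interval -0.03 to 0.25), 0.32 in CR (interval 0.17 to 0.47) and 0.24 in SR (interval 0.09 to 0.39), and none passed the FDR threshold. Its salt-treated libraries were all above its untreated ones, by small factors.

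GRMZM2G055331_T01, the second by level, had 70.0 RPKM (593 reads) in PR-salt against 55.7 RPKM (453 reads) in PR, 73.1 RPKM (589 reads) in CR-salt against 48.0 RPKM (399 reads) in CR, and 56.7 RPKM (458 reads) in SR-salt against 39.9 RPKM (316 reads) in SR. It rose in CR by a log2 ratio of 0.61 (Audic-Claverie FDR 1.23e-08) and in SR by 0.51 (Audic-Claverie FDR 0.000135), both below the ratio threshold. In PR the ratio was 0.33 with an FDR of 0.0132 in the same test. The edgeR average was 0.45 with an FDR of 0.0580, and it passed without PR-salt (FDR 5.48e-05) or PR (FDR 0.000187) but not without any other library (FDR up to 0.271).

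Of the 7 members with at least 60 reads, 4 were higher in all 3 root types (all transcripts 20.1%) and 0 lower (14.9%). Besides the leading pair these were GRMZM2G049076, with 325 reads in PR-salt against 291 in PR, 303 in CR-salt against 302 in CR and 284 in SR-salt against 253 in SR, and GRMZM2G140107, with 52 reads in PR-salt against 48 in PR, 58 in CR-salt against 43 in CR and 66 in SR-salt against 38 in SR. All 7 sucrose-phosphate synthases with at least 20 reads in the SR pair were higher in SR-salt than in SR (median log2 ratio 0.24, 1 read added, all transcripts 0.02). Of all transcripts with as many reads, 47.6% were lower in SR-salt. The log2 ratio of GRMZM2G140107 in SR was 0.77 (interval 0.17 to 1.38, Audic-Claverie FDR 0.178).

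The TPS members with the clearest salt ratios were GRMZM2G312521_T01 and GRMZM2G122231_T01, to both of which the RefSeq table gives the synonym TPS9. The deposited annotation matches both to the same sorghum sequence, so reads that fit either locus could be missing from the count of uniquely aligned reads. GRMZM2G312521 had 24.9 RPKM (196 reads) in PR-salt against 60.5 RPKM (458 reads) in PR, 56.0 RPKM (420 reads) in CR-salt against 64.2 RPKM (497 reads) in CR, and 53.3 RPKM (401 reads) in SR-salt against 87.5 RPKM (646 reads) in SR. GRMZM2G122231 had 23.4 RPKM (159 reads) in PR-salt against 63.9 RPKM (418 reads) in PR, 47.9 RPKM (310 reads) in CR-salt against 61.1 RPKM (408 reads) in CR, and 43.7 RPKM (284 reads) in SR-salt against 65.1 RPKM (415 reads) in SR. For both, PR-salt was the lowest library and each salt-treated library lay below every untreated one.

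In PR, GRMZM2G312521 fell by 1.28 on the log2 scale (interval -1.53 to -1.04, Audic-Claverie FDR 7.62e-25) and GRMZM2G122231 fell by 1.45 (interval -1.73 to -1.19, Audic-Claverie FDR 1.72e-27). In SR they passed the FDR at ratios short of the threshold, with log2 ratios of -0.72 and -0.58 (Audic-Claverie FDR 8.07e-13 and 2.24e-05). In CR the ratios were -0.20 and -0.35, with FDR of 0.469 and 0.0477 in the same test. Both were called in the exact conditional test of PR against CR, with the log2 ratio of GRMZM2G312521 in PR below that in CR by a difference of -1.08 (FDR 6.06e-10) and that of GRMZM2G122231 by -1.10 (FDR 2.74e-08). They were 2 of 40 members called in that comparison, where 0.662% of all transcripts were called. Between PR and SR the differences were -0.56 (FDR 0.0125) and -0.87 (FDR 5.16e-05), and neither reached 1. The edgeR averages were -0.74 (FDR 0.0666) for GRMZM2G312521 and -0.80 (FDR 0.0629) for GRMZM2G122231. Both passed without PR-salt (-0.49 and -0.49, edgeR FDR 0.00022 and 0.000759), PR (-0.49 and -0.49, edgeR FDR 0.00094 and 0.0018), CR-salt (-1.01 and -1.03, edgeR FDR 0.000619 and 0.00241) or CR (-1.02 and -1.03, edgeR FDR 0.0107 and 0.0326). Neither passed without SR-salt (edgeR FDR 0.248 and 0.158) or SR (edgeR FDR 0.126 and 0.0583).

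The most abundant TPS, GRMZM2G527891_T01 (synonym TPS4), varied little with salt. It had 120 RPKM in PR-salt against 146 RPKM in PR, 170 RPKM in CR-salt against 186 RPKM in CR, and 235 RPKM in SR-salt against 230 RPKM in SR. The log2 ratio was -0.28 in PR (interval -0.41 to -0.14), -0.13 in CR (interval -0.24 to -0.01) and 0.03 in SR (interval -0.07 to 0.13, and -0.01 with TMM scaling), and none passed. GRMZM2G118462_T01 (synonym TPS3), the second by level, had 48.7 RPKM in PR-salt against 54.2 RPKM in PR, 55.8 RPKM in CR-salt against 71.2 RPKM in CR, and 51.0 RPKM in SR-salt against 66.5 RPKM in SR. Nor did this transcript pass, at log2 ratios of -0.16 for PR, -0.35 for CR and -0.38 for SR.

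GRMZM2G001304_T01 had the largest TPS ratio in CR among members with at least 50 reads in the pair, with 23 reads in CR-salt against 62 in CR. Its log2 ratio there was -1.38 (interval -2.14 to -0.67, Audic-Claverie FDR 0.00263). It had 35 reads in PR-salt against 34 in PR, and 47 in SR-salt against 36 in SR. The RefSeq table places it with GRMZM2G133966 in 1 gene. GRMZM2G133966 had 16 reads in CR-salt against 43 in CR, 40 in PR-salt against 28 in PR, and 21 in SR-salt against 25 in SR. Neither was called at an FDR of 0.001, while both were called in CR at an FDR of 0.05. Their reads were not joined, so whether the gene as a whole passed was not tested. Of the 14 TPS with at least 60 reads, 4 were lower in all 3 root types (6 with TMM scaling), namely GRMZM2G312521, GRMZM2G122231, GRMZM2G118462 and GRMZM2G019183, and 1 was higher in all 3 (GRMZM2G304274). Among all transcripts with at least 60 reads, 14.9% were lower and 20.1% higher in all 3.

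**Figure D4:**
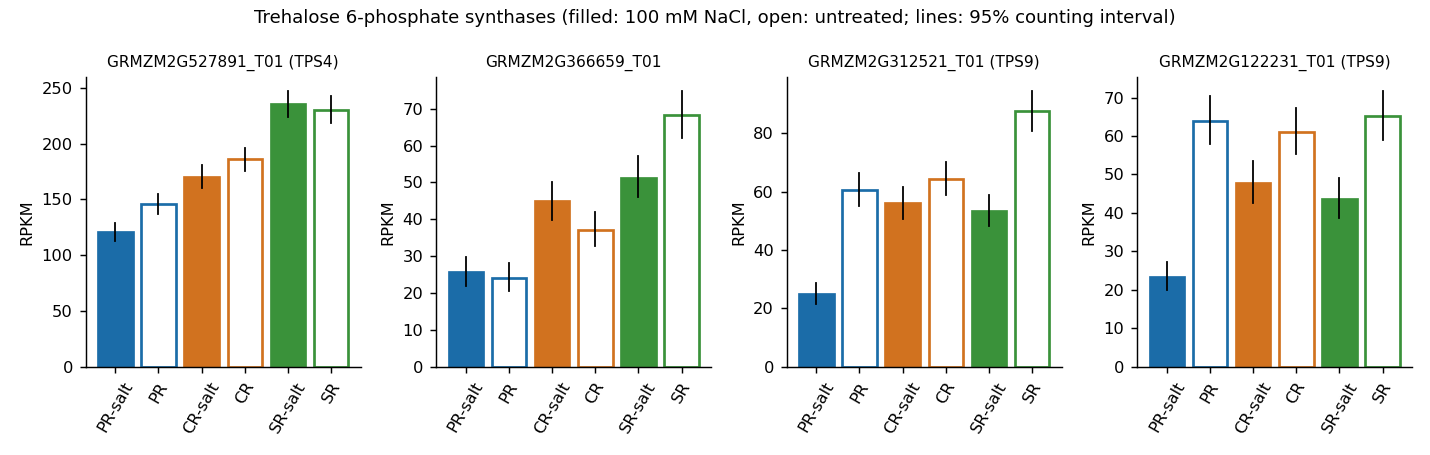
RPKM of 4 TPS transcripts (vertical axes, linear from 0, a panel each) in the 6 libraries, filled bars for 100 mM NaCl and open bars for untreated roots, with exact 95% counting intervals as lines. GRMZM2G527891 and GRMZM2G366659 are lowest in the 2 PR libraries, and GRMZM2G312521 and GRMZM2G122231 are lowest in PR-salt.

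TPP removes the phosphate from trehalose 6-phosphate, and its 14 members were low, with 4 at or above 60 reads. The leading transcript, GRMZM2G178546_T01, had 27.7 RPKM in PR-salt against 30.6 RPKM in PR, 43.1 RPKM in CR-salt against 42.1 RPKM in CR, and 45.0 RPKM in SR-salt against 60.0 RPKM in SR. GRMZM2G347280_T01 had 15.3 RPKM in PR-salt against 22.7 RPKM in PR, 21.5 RPKM in CR-salt against 21.8 RPKM in CR, and 31.7 RPKM in SR-salt against 24.7 RPKM in SR. For GRMZM2G347280 the order of salt-treated and untreated libraries changed between root types. For GRMZM2G178546 it changed only in CR, where the reads were nearly equal (127 in CR-salt, 128 in CR). No TPP passed in any root type.

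GRMZM2G151044_T01 had 68 reads in SR-salt against 34 in SR, 74 in CR-salt against 61 in CR, and 24 in PR-salt against 31 in PR, and the log2 ratio of 0.97 in SR (interval 0.36 to 1.61) had an Audic-Claverie FDR of 0.0395. GRMZM2G174396 was lower in each salt-treated library, with 4 reads in SR-salt against 25 in SR, 7 in CR-salt against 16 in CR, and 8 in PR-salt against 17 in PR. Its log2 ratio in SR was -2.67 (interval -4.66 to -1.14, Audic-Claverie FDR 0.00324). It met the edgeR filter through the untreated libraries alone, so its average salt effect there is not given as a test. The transcript of ra3 (GRMZM2G014729), the TPP that sets the branching of the maize inflorescence, had 1 read over the 6 libraries.

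The neighbouring steps of the pathway were read from 73 transcripts annotated as hexokinase, fructokinase, UTP-glucose-1-phosphate uridylyltransferase, phosphoglucomutase, glucose-6-phosphate isomerase, sucrose transporter or SWEET sugar transporter, and no transcript carried the trehalase entry. In PR-salt 1 of 66 was called (all transcripts 0.519%), a hexokinase with 35 reads in PR-salt against 83 in PR. In CR-salt 4 of 63 (all transcripts 0.369%) and in SR-salt 3 of 63 (all transcripts 0.392%) were called, all lower and all SWEET transporters, which let sugars pass membranes along their gradient. Most genes that the study called in these root types were down-regulated too. SWEET transporters made up 24 of the transcripts tested in PR, 21 in CR and 21 in SR. By edgeR's quasi-likelihood test 2 of 34, among them 11 SWEET transporters, were called for the average salt effect (all transcripts 0.613%), both SWEET transporters and both lower. GRMZM2G000812 had 28 reads in PR-salt against 48 in PR, 558 in CR-salt against 983 in CR, and 137 in SR-salt against 332 in SR. GRMZM2G015976 had 72 reads in PR-salt against 131 in PR, 49 in CR-salt against 126 in CR, and 57 in SR-salt against 108 in SR.

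Levels differed between root types as well. Averaged over salt, edgeR's quasi-likelihood test called 5 of the 34 members for PR against CR (6.47% of all transcripts) and 6 for PR against SR (4.68%), and all of these were lower in PR. Both counts include sps1, which reached 10 reads in no PR library, and without it and GRMZM2G018692, for which the same holds, they were 4 and 5 of 32. For CR against SR it called 0 of 34 (1.1% of all transcripts), with 8 at an unadjusted p of at most 0.05 and 0 called by DESeq2. The counts changed with the libraries used, among the members and among all transcripts, and their ranges are given in the last section. DESeq2 called 2 for PR against CR and 3 for PR against SR, and both counts include sps1 (adjusted p of DESeq2 0.000205 and 0.0366). The counts for PR against CR and PR against SR without 1 library include sps1 too, apart from PR against SR without SR-salt.

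Of the 14 TPS tested, 2 were called for PR against CR (all transcripts 6.47%) and 3 for PR against SR (all transcripts 4.68%). Of the 4 TPP tested, 1 was called in each. By DESeq2 none of these passed for PR against CR (adjusted p 0.495 for GRMZM2G527891, 0.182 for GRMZM2G366659 and 0.197 for the TPP GRMZM2G151044). For PR against SR, GRMZM2G527891 (DESeq2 adjusted p 0.00394) and GRMZM2G366659 (0.000334) passed, and the TPP GRMZM2G178546 (0.263) did not. With sps1, these TPS were all the members that DESeq2 called for PR against SR. The TPS GRMZM2G527891, whose levels are given above, was lowest in the PR libraries, higher in those of CR and highest in those of SR, without overlap. Its log2 fold change was -0.80 for PR against SR (SE 0.10, edgeR FDR 0.00135), a call that was kept without any 1 library. For PR against CR it was -0.42 (SE 0.10, edgeR FDR 0.0358), a call that was lost without PR-salt, CR-salt, CR or SR-salt, with an FDR of up to 0.230 (without CR).

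GRMZM2G366659_T01 had 25.6 RPKM in PR-salt and 24.1 RPKM in PR, against 44.8 RPKM in CR-salt and 37.1 RPKM in CR and against 51.3 RPKM in SR-salt and 68.2 RPKM in SR. The log2 fold change was -1.25 for PR against SR (edgeR FDR 0.00123), kept without any 1 library. For PR against CR it was -0.72 (edgeR FDR 0.0240), lost without CR-salt (FDR 0.201). GRMZM2G008226, which the annotation matches to the same sorghum sequence as GRMZM2G366659, had 29.8 RPKM in PR-salt and 23.03 RPKM in PR, against 37.3 RPKM in SR-salt and 48.3 RPKM in SR, a log2 fold change of -0.68 (edgeR FDR 0.0403).

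The sucrose-phosphate synthase sps1 (GRMZM5G875238_T01) was nearly without reads in PR. It had 1 read in PR-salt and 2 in PR, against 36 in CR-salt and 55 in CR and against 25 in SR-salt and 11 in SR. The log2 ratio of PR-salt over CR-salt was -5.24 (interval -10.6 to -2.67) and that of PR over CR was -4.75 (interval -7.83 to -2.83). That of PR-salt over SR-salt was -4.71 (interval -10.1 to -2.10). It had entered the edgeR fit through the libraries of CR and SR alone, so its calls there (FDR 0.000702 for PR against CR and 0.0205 for PR against SR, the second lost without SR-salt at an FDR of 0.166) give no more than these reads show. It was the 1 sucrose-phosphate synthase called for PR against CR. GRMZM2G471083, with 26.9 RPKM in PR-salt and 23.8 RPKM in PR against 38.8 RPKM in SR-salt and 37.8 RPKM in SR, was also called for PR against SR, at a log2 fold change of -0.58 (edgeR FDR 0.0409).

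Of the invertases, GRMZM2G095725 was called lower in PR than in CR at a log2 fold change of -2.79 (SE 0.38, edgeR FDR 0.0009997), and the call was kept without any 1 library. For PR against SR, where SR-salt and SR differed, the value was -1.64 with an edgeR FDR of 0.0503. The abundant ivr2 had log2 fold changes of -0.21 for PR against CR (edgeR FDR 0.429) and 0.02 for PR against SR (edgeR FDR 0.962), and did not pass between any root types.

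Among TPP, GRMZM2G151044 had 8.41 RPKM in PR-salt and 11.3 RPKM in PR, against 27.3 RPKM in CR-salt and 21.8 RPKM in CR. Its log2 fold change for PR against CR was -1.31 (edgeR FDR 0.0245), lost without PR-salt, CR-salt or CR, with an FDR of up to 0.176. GRMZM2G178546 was called lower in PR than in SR at -0.83 (edgeR FDR 0.0172), a call lost without SR at an FDR of 0.209.

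**Figure D5:**
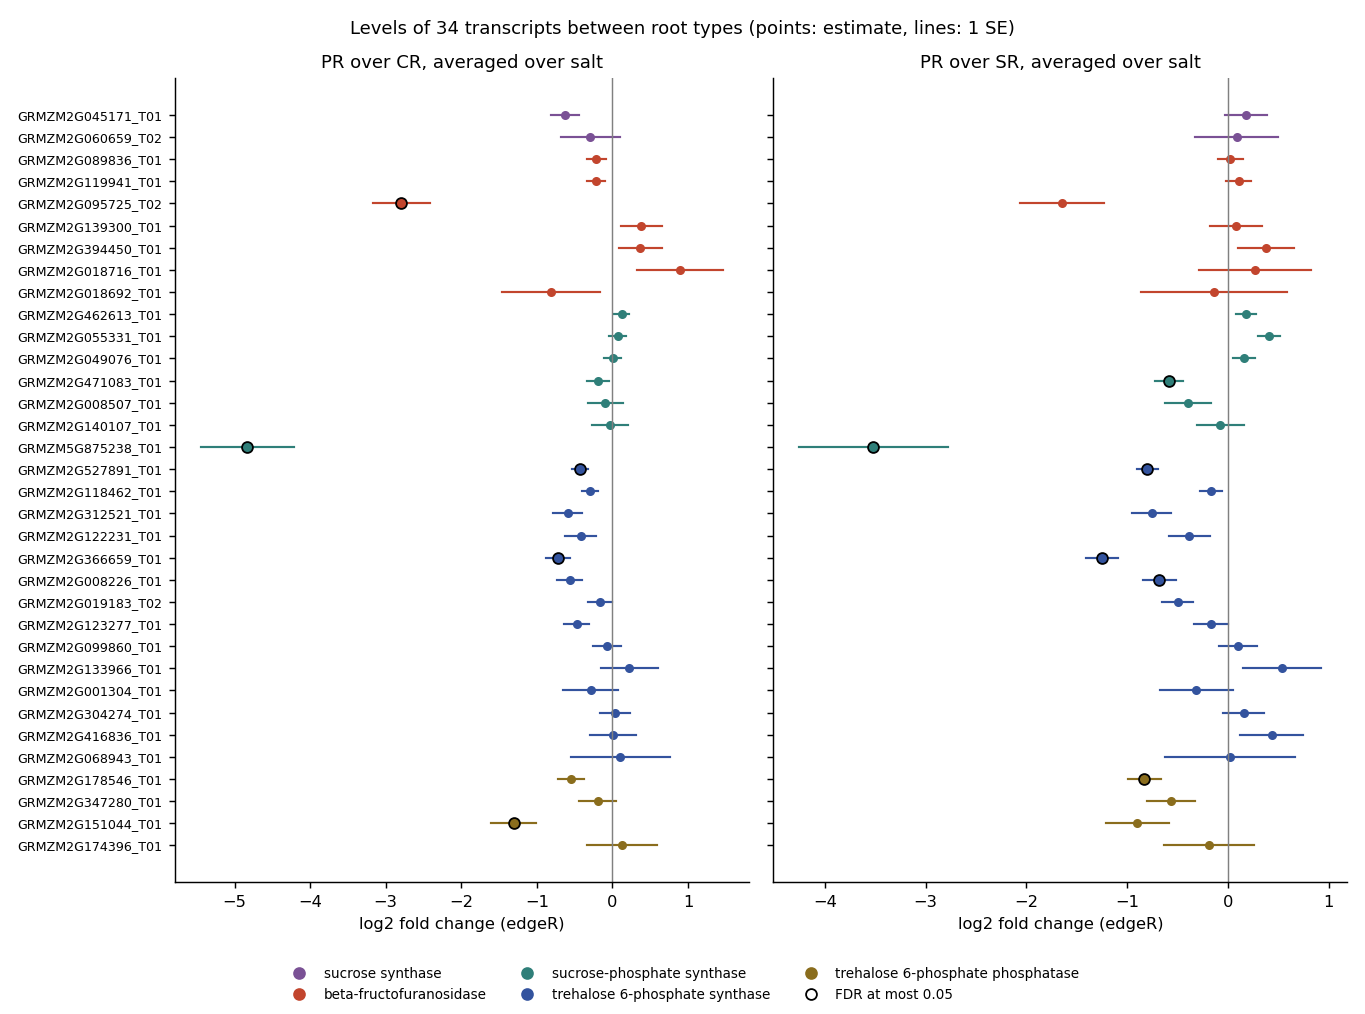
Log2 fold change by edgeR of the 34 members tested (rows, coloured by enzyme) for PR over CR (left) and PR over SR (right), averaged over salt, with lines of 1 SE and ringed points for an FDR of at most 0.05. The 5 ringed points on the left and the 6 on the right all lie below 0, that is lower in PR, with sps1 (GRMZM5G875238) farthest from 0 in both.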

How the data were processed

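The authors aligned quality-filtered reads to the B73 genome with SOAP, related them to genes with BLAST. The deposited table gives, per transcript, the length, the annotation, the count of uniquely aligned reads, the RPKM and the percent coverage, of which the last was not used. Cultivar Chang 7-2 differs from B73, so reads of diverged copies may be missing. No column of sample values lacked a sample (0 columns). Counts were used unnormalized. Strand use in counting is not given in the sources used here.

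Annotation alone decided which transcripts were members, but the rule and the lists were set with earlier results of these data known. Calls within a root type used the Audic-Claverie test with Benjamini-Hochberg adjustment over transcripts with a read (an RPKM of 0 set to 0.01). The edgeR model held root type and salt with TMM scaling and left 2 residual degrees of freedom. Reads carried no molecular identifiers, so intervals cover counting error only. The labels do not say whether libraries came from separate cultures or pool the replicates they mention, and p-values of edgeR measure only the spread between these libraries.

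Named transcripts (19) were those called for salt or for a difference of salt ratios, the 2 highest of each enzyme, the largest ratio of each enzyme and root type among members with at least 50 reads in the pair, and the member of lowest FDR of each enzyme in a root type contrast. IVR1, incw1, incw3, mn1, sus1, sus2, sh1, ra3, GRMZM2G049076, GRMZM2G133966, GRMZM2G174396, GRMZM2G008226, GRMZM2G471083, GRMZM2G019183, GRMZM2G018692, GRMZM2G304274 and the SWEET transporters were named after their values were seen. Gene names are those of RefSeq (assembly Zm-B73-REFERENCE-NAM-5.0, 32 of 75 genes matched). No coordinates are given, since the authors used another build. Tools were edgeR 4.0.16 and DESeq2 1.42.0 in R 4.3.3, and Python 3.11.15 with scipy 1.17.1, numpy 2.4.6, matplotlib 3.10.9 and pandas 2.3.3. Procedures were tested on simulated data.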

Additional observations from a re-analysis of the deposited data

Results flagged for a closer look

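Salt ratios of 3 members differed between root types by the exact conditional test on the reads of 4 libraries, which compares libraries and not conditions. The TPS GRMZM2G312521_T01 had a difference of -1.08 (log2, PR minus CR), with 196 reads in PR-salt against 458 in PR and 420 reads in CR-salt against 497 in CR. The TPS GRMZM2G122231_T01 had a difference of -1.10 (log2, PR minus CR), with 159 reads in PR-salt against 418 in PR and 310 reads in CR-salt against 408 in CR. The invertase GRMZM2G018716_T01 had differences of -3.03 (log2, PR minus SR) and -3.23 (log2, CR minus SR), with 8 reads in PR-salt against 90 in PR, 3 reads in CR-salt against 49 in CR, and 29 reads in SR-salt against 37 in SR. Summed RPKM of dividing-cell markers moved with salt in all root types (log2 ratio -0.27 for PR, -0.31 for CR and -0.39 for SR), and that of green-tissue markers by 0.21 for PR, 1.0 for CR and -0.09 for SR. The part of either in these differences was not tested.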

How the results depend on the processing

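Within root types, an FDR of 0.05 gave 3 members in PR (373 of all transcripts against 212), 3 in CR (312 against 148) and 4 in SR (334 against 159). An assumed coefficient of variation of 0.2 gave 1, 0 and 0 members in PR, CR and SR (39, 4 and 3 of all transcripts). For differences of salt ratios, an FDR of 0.05 gave 4 members for PR against CR (293 of all transcripts against 147), 2 for PR against SR (311 against 158) and 3 for CR against SR (105 against 41).

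Without a filter on low counts, edgeR called 7 members for the average salt effect (795 of all transcripts against 113), 9 for PR against CR (2053, where the filtered fit called 6.47% of 18444), 10 for PR against SR (1638 against 864) and 5 for CR against SR (707 against 203). DESeq2 called 1 member for the average salt effect (41 of all transcripts), 2 for PR against CR (510), 3 for PR against SR (339) and 0 for CR against SR (84). The 2 and the 3 each include sps1, which reached 10 reads in no PR library. Leaving out 1 library each gave 1 to 9 members for the average salt effect (44 to 977 of all transcripts), 2 to 7 for PR against CR (627 to 1646), 4 to 10 for PR against SR (391 to 1437) and 0 to 6 for CR against SR (89 to 995). Those for PR against CR and PR against SR include sps1, apart from PR against SR without SR-salt. A root type left with 1 library is assumed to vary like the others. For the salt effect it adds nothing, so its pair drops out. The cause of the shifts between these fits was not tested. Fisher's exact test, TMM or DESeq2 scaling, 1 read added and reads summed to genes kept the number of members called within root types. The sums to genes used the deposited gene IDs, which keep GRMZM2G001304 and GRMZM2G133966 apart. The 53 log2 ratios of the named transcripts with a value stayed within their intervals under 106 alternative values (TMM scaling, 1 read added), and 1 changed sign (GRMZM2G527891 in SR, 0.03 as reported and -0.01 with TMM scaling). All 15 enzyme sums moved by less than their counting error under TMM scaling, and that of TPP in SR crossed a fold of 1 (1.02 as reported, 0.995 with TMM). The labels carry no replicate numbers, and salt-treated and untreated libraries were paired by root type in the edgeR fit. Depth limits the sparse members, of which 32 had fewer than 10 reads over the 6 libraries.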
